A study of Homo sapiens with 6 samples.

Results

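The genes described here are 48 regulators of chromatin and DNA methylation that are often discussed in leukaemia, and they were selected by gene symbol from the 63236 genes of the deposited table. FUJIOKA cells, an established human acute myeloid leukaemia line, carried doxycycline-inducible lentiviral shRNAs, and RNA was sequenced from 3 libraries with a scrambled control shRNA (shNEG) and 3 with a shRNA against SPINK2, a Kazal-type serine protease inhibitor (shSPINK2). All 6 libraries come from the same line grown in the same medium. The methods describe selection with puromycin and continuous doxycycline to switch on the shRNA, and give no collection time for the RNA sequencing. The labels name 2 SPINK2 shRNAs and do not say which of them a library carries, whereas the methods name 1, and nothing in the labels says whether replicates were separate cultures or clones. The only measured level used here is the authors' mean of normalised counts over all 6 libraries, so the values describe how strongly each gene was expressed across the series as a whole, and no difference between shNEG and shSPINK2 is given for any gene.

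DNA methyltransferases place methyl groups on cytosine in CpG dinucleotides, and TET enzymes oxidise them on the way to removal. Polycomb complexes mark genes for silencing, PRC2 by methylating lysine 27 of histone H3 and PRC1 by ubiquitinating histone H2A, while KMT2 enzymes bound to menin methylate lysine 4 of histone H3 at active genes. Acetyltransferases and deacetylases set histone acetylation, and demethylases remove methyl groups from histone lysines. Many of these genes are mutated, fused or used as drug targets in myeloid leukaemia, where they bear on self-renewal and on the block of differentiation. The 48 genes were divided by function into DNA methylation (8 genes), Polycomb (16), KMT2, menin and their partners (9), acetylation (6), demethylases (4) and other histone methyltransferases (5).

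The SPINK2 sequences that the labels list for silencing are shown because they define the treatment, in capitals throughout since the whole site matched the target.
shRNA1: TCAGGGAAGGTGGTCATAATA
shRNA2: CGCCAAACTGCTCTCAGTATA
Both matched transcripts of SPINK2 and of no other gene among annotated transcripts, and thus 0 of the 48 regulators. On the minus strand of chromosome 4 (GRCh38), the shRNA1 site runs from 56810168 to 56811688 across the junction of exons 3 and 4 of the canonical transcript, and the shRNA2 site from 56811776 to 56820537 across the junction of exons 2 and 3, both in coding sequence. SPINK2 (ENSG00000128040.10) had an authors' mean of 32.3 normalised counts. The whole reads behind this mean were 6, 7, 9, 53, 56 and 63 in the 6 libraries, which carry no label in the table and were assigned to no group. The targeted gene was therefore detected in every library, at a low level of 1.10 RPKM over the series.

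Each regulator was detected, with authors' means from 169 normalised counts for TET1 to 22898 for BMI1. To compare genes, the mean was divided by the length of the merged exons of the gene in kilobases and by the sum of all means, which gives a level on the scale of RPKM, the usual measure of reads per length and depth. The sum of means was 38425214 normalised counts per library. On this scale the regulators ranged from 0.457 for TET1 to 136 for BMI1, a 297-fold range, with a median of 8.27. Of the 48 genes, 22 (45.8%) had a level of at least 10 RPKM and 3 (TET1, CBX7 and KDM6A) a level under 1. Among 16127 protein-coding genes with a mean above 0 the median level was 2.97 RPKM, and 26.9% reached 10 RPKM. The median regulator lay at percentile 69.1 of these genes, 40 of the 48 were above their median and 6 were above percentile 90. Together the regulators took 0.567% of all normalised counts. Counting error was small, since the 95% Poisson interval of the reads summed over libraries spanned between 0.529% and 6.21% to either side of the level. Reads carry no molecular identifiers, so these intervals cover counting error only, and no spread between libraries is known. In the order of the 48 levels, the intervals of 13 of the 47 pairs of neighbours overlapped.

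**Figure D1:**
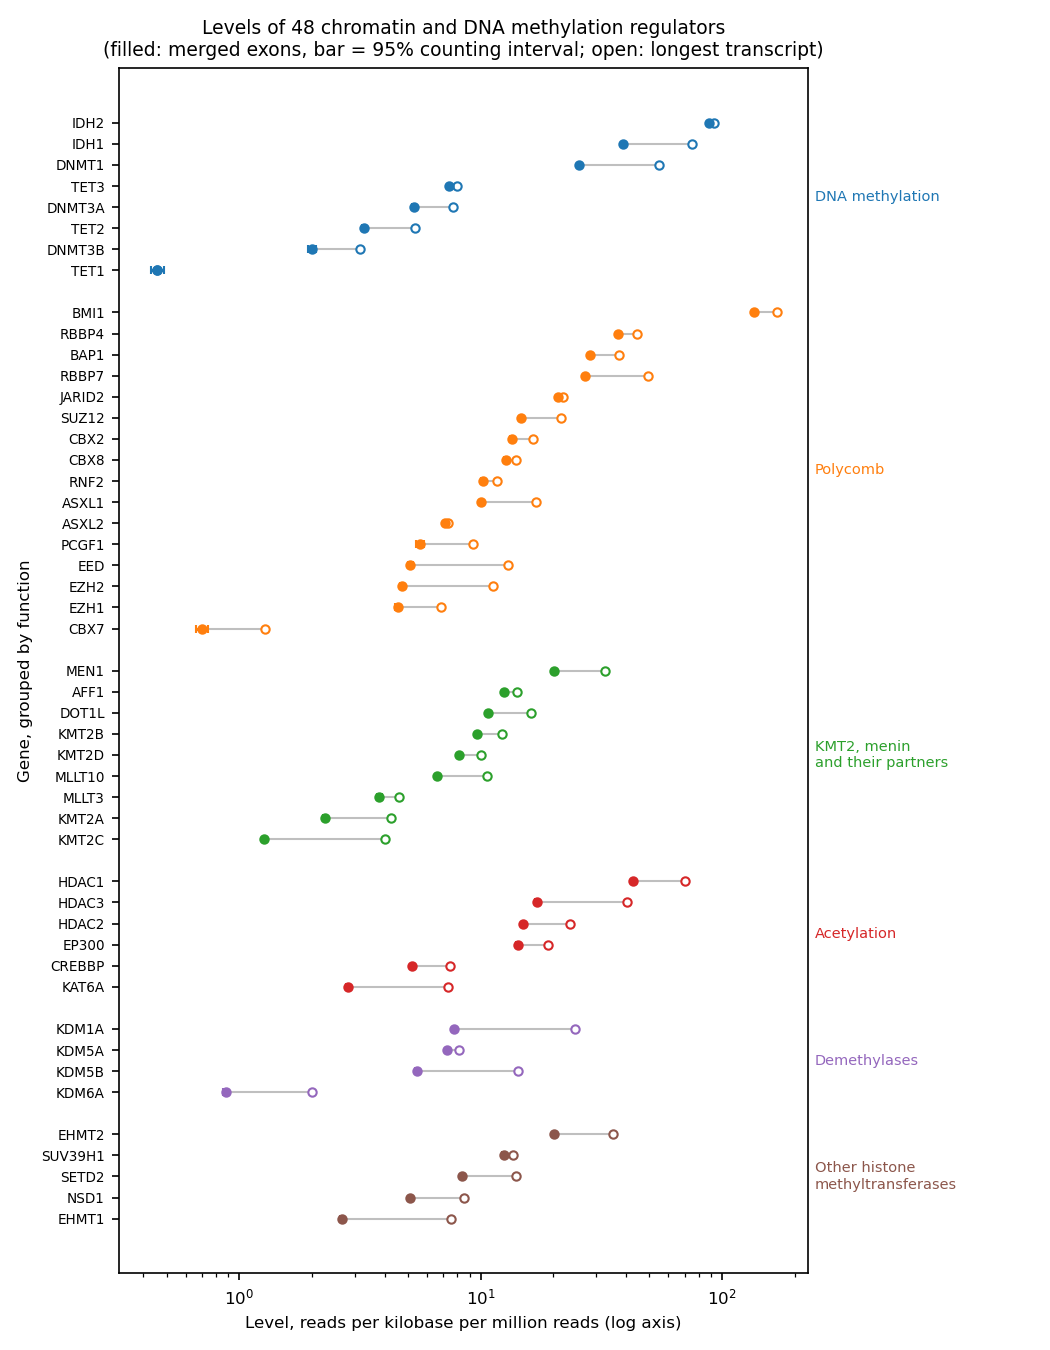
Level of each of the 48 regulators in RPKM (log axis), from the authors' mean over all 6 libraries, with genes in rows and functional groups in colours. Filled points use merged exons, with bars for the 95% Poisson counting interval, and open points the longest annotated transcript; BMI1 at 136 RPKM is the highest and TET1 at 0.457 RPKM the lowest.

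The 8 DNA methylation genes had a median level of 6.36 RPKM. DNMT1 (ENSG00000130816.14, chromosome 19 from 10133342 to 10231286), the maintenance methyltransferase that copies methylation to the new strand after replication, had the second highest mean of the 48, 15140 normalised counts, and a level of 25.6 RPKM (95% counting interval 25.5 to 25.8). The de novo methyltransferases were lower, with DNMT3A at 5.29 RPKM (chromosome 2 from 25227855 to 25342590) and DNMT3B at 2.00 RPKM (chromosome 20 from 32762385 to 32809359). DNMT1 was thus 4.84-fold above DNMT3A and DNMT3A 2.64-fold above DNMT3B. Opposite ends of the genes' counting intervals put these ratios at 4.74 to 4.95 and 2.51 to 2.78, ranges wider than 95% intervals of the ratios. The length used moved the first ratio far more than counting error did, to 7.18 with the longest transcript and to 3.01 with coding length. The second ratio moved to 2.44 with the longest transcript, slightly below its counting range, and to 4.78 with coding length, far above it.

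The TET dioxygenases were ordered TET3, TET2 and TET1, at 7.42, 3.29 and 0.457 RPKM. TET3 was 16.3-fold above TET1, the least expressed regulator of all (ENSG00000138336.8, chromosome 10 from 68560337 to 68694487). Opposite ends of the 2 counting intervals put this ratio between 15.1 and 17.5. TET2, a frequent target of loss-of-function mutation in myeloid disease, was 7.21-fold above TET1. With the longest transcript TET3 and TET2 were 17.4-fold and 11.7-fold above TET1, and with coding length 25.9-fold and 12.9-fold. IDH1 and IDH2, the cytosolic and the mitochondrial NADP-dependent isocitrate dehydrogenases, produce the 2-oxoglutarate that TET enzymes consume. Their levels were 38.8 RPKM for IDH1 and 88.6 RPKM for IDH2, and IDH2 (ENSG00000182054.9, chromosome 15 from 90083045 to 90102477) was second only to BMI1 with merged exons. With coding length RBBP4 (228 RPKM) was above IDH2 (182 RPKM). IDH2 was 2.28-fold above IDH1 with merged exons and 1.24-fold above it with either of the other lengths. The group thus held a pair of highly expressed metabolic enzymes, one abundant maintenance enzyme, and erasers and de novo writers at lower levels.

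The 16 Polycomb genes had a median level of 11.5 RPKM, and 10 of them were at or above 10 RPKM. Within PRC2, the catalytic subunits EZH2 and EZH1 were at 4.70 and 4.52 RPKM, a ratio of 1.04. Opposite ends of the genes' counting intervals put this ratio at 0.999 to 1.08. That range is wider than a counting interval of the ratio, so it does not decide whether counting error alone allows a ratio of 1. With the length of the longest transcript in place of merged exons the same ratio was 1.65, and with coding length 1.47, so that the near equality of the catalytic subunits depended on the length used. SUZ12, the scaffold subunit, was at 14.7 RPKM and EED, which binds the methylated histone tail, at 5.11 RPKM. The histone chaperones RBBP4 and RBBP7, which also belong to deacetylase and remodelling complexes, were at 36.9 and 27.1 RPKM. JARID2, an accessory subunit that helps to place PRC2 on chromatin, was at 20.98 RPKM. EZH2 and EED differed little (ratio 0.921), and SUZ12 was 2.88-fold above EED (1.66-fold with the longest transcript, 1.93-fold with coding length). SUZ12P1, a partial copy of SUZ12 on the same chromosome, had a mean of 681 normalised counts beside 3706 for SUZ12. Per merged exon length the copy was at 17.99 RPKM, above SUZ12 at 14.7 RPKM, and their reads may be split between the copies. The RBBP4 pseudogenes had means of at most 34.3 beside 13424 for RBBP4.

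Within PRC1, BMI1 stood above all other regulators. BMI1 (ENSG00000168283.13, chromosome 10 from 22321099 to 22331484), the PCGF subunit of canonical PRC1 known for its part in stem cell self-renewal, had 22898 normalised counts and 136 RPKM (95% counting interval 135 to 136), at percentile 98.5 of protein-coding genes. The E3 ligase RNF2 was at 10.2 RPKM and PCGF1, the PCGF subunit of a variant PRC1, at 5.60 RPKM, so that BMI1 was 13.3-fold above RNF2 and 24.2-fold above PCGF1. The second ratio was 18.2 with the longest transcript and 48.5 with coding length. BMI1 shares 22.8% of its exon bases with the read-through gene COMMD3-BMI1, which had a mean of 4.33 normalised counts, and the upstream gene COMMD3 had a mean of 4070. How reads on the shared bases were assigned was not examined, so the mean of COMMD3-BMI1 does not measure read-through. The chromodomain subunits CBX2 and CBX8, which read H3 lysine 27 methylation, were at 13.4 and 12.7 RPKM. CBX7 (ENSG00000100307.12, chromosome 22 from 39120167 to 39152680) was at 0.701 RPKM, from a mean of 201 normalised counts, 18.2-fold below CBX8 and 19.2-fold below CBX2. These folds shrank to 11.004 and 12.9 with the longest transcript and to 6.27 and 5.64 with coding length. Of the exon bases of CBX7, 21.6% are also annotated to other genes on either strand. The same holds for 22.8% of those of RBBP4, 21.2% of those of SUV39H1 and 11.3% of those of DOT1L. The deubiquitinase BAP1, which removes the PRC1 mark, was at 28.5 RPKM, and its cofactors ASXL1 and ASXL2 were at 10.0 and 7.11 RPKM.

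The 9 genes of the KMT2 and menin group had a median level of 8.16 RPKM. MEN1, which encodes the menin scaffold, was the highest at 20.2 RPKM (ENSG00000133895.14, chromosome 11 from 64803510 to 64811294). Among the methyltransferases, KMT2B and KMT2D were at 9.65 and 8.16 RPKM, and KMT2A and KMT2C at 2.25 and 1.27 RPKM. KMT2A (ENSG00000118058.20, chromosome 11 from 118436456 to 118526832), the gene fused in MLL-rearranged leukaemia, was thus 4.29-fold below KMT2B with merged exons, 2.90-fold with the longest transcript and 2.14-fold with coding length. MEN1 was 8.96-fold above KMT2A. KMT2C, whose merged exons span 53.3 kilobases, was lower than KMT2D by 6.44-fold with merged exons, by 2.50-fold with the longest transcript and by 2.85-fold with coding length. A gene annotated on the same strand covers 18.3% of the KMT2A exon bases. The fusion partners and the H3 lysine 79 methyltransferase of the same axis ranked, with merged exons, AFF1 (12.4 RPKM), DOT1L (10.7 RPKM), MLLT10 (6.61 RPKM) and MLLT3 (3.80 RPKM). With the longest transcript DOT1L (16.1 RPKM) was above AFF1 (14.2 RPKM), and with coding length MLLT3 (17.99 RPKM) was above MLLT10 (15.9 RPKM).

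The 6 acetylation genes had the highest median of the groups with merged exons, 14.6 RPKM. Class I deacetylases led it, with HDAC1 at 42.8 RPKM (chromosome 1 from 32292083 to 32333635), HDAC3 at 17.1 RPKM and HDAC2 at 14.9 RPKM. HDAC2 had more counts than HDAC1, a mean of 8803 against 6521, and the order of levels came from its longer annotated exons, 15.3 kilobases against 3.97. With coding length HDAC2 was above both others. The acetyltransferase EP300 was at 14.2 RPKM, 2.73-fold above its paralog CREBBP (5.20 RPKM), and KAT6A, a fusion partner in leukaemia, at 2.81 RPKM.

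The 4 demethylases had a median level of 6.34 RPKM and none reached 10 RPKM with merged exons. KDM1A, the flavin-dependent enzyme LSD1 that acts on H3 lysine 4, was at 7.77 RPKM, and KDM6A, the X-linked H3 lysine 27 demethylase also named UTX, at 0.877 RPKM (ENSG00000147050.14, chromosome X from 44873188 to 45112779). KDM1A was 8.86-fold above KDM6A. With the longest transcript KDM1A was at 24.6 RPKM and KDM6A at 2.01 RPKM, and with coding length at 50.0 and 5.37 RPKM. The H3 lysine 4 demethylases KDM5A and KDM5B were at 7.26 and 5.42 RPKM, an order that turned with either of the other lengths. With the longest transcript KDM5A and KDM5B were at 8.16 and 14.2 RPKM, and with coding length at 16.8 and 25.2 RPKM. Among the other histone methyltransferases, EHMT2 and EHMT1, partners in H3 lysine 9 methylation, were at 20.1 and 2.65 RPKM, a 7.56-fold difference that was 4.72-fold with the longest transcript and 2.90-fold with coding length. EHMT2 lies in the major histocompatibility region of chromosome 6 (31879759 to 31897698), and 6 further rows with its symbol were listed with a mean of 0. SUV39H1, which methylates the same residue in heterochromatin, was at 12.5 RPKM, and the H3 lysine 36 methyltransferases SETD2 and NSD1 at 8.38 and 5.11 RPKM.

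**Figure D2:**
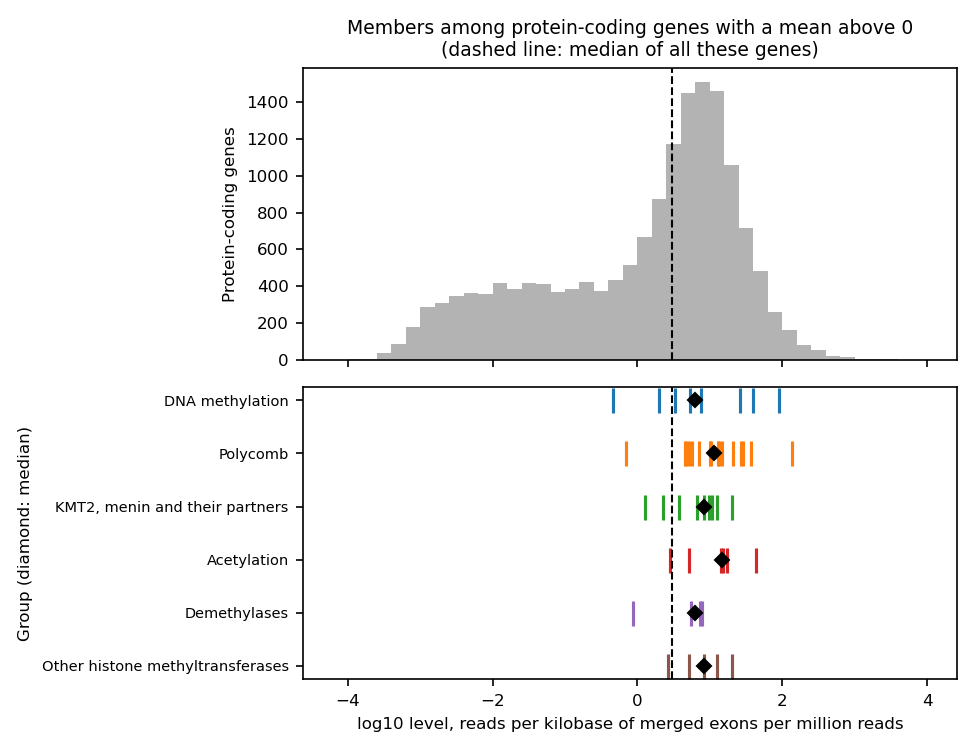
Distribution of log10 levels (RPKM of merged exons) of 16127 protein-coding genes with a mean above 0 (grey bars, upper panel) and of the 48 regulators by group (coloured ticks, lower panel, diamonds for group medians). All 6 group medians lie to the right of the dashed line, which is the median of all genes at 2.97 RPKM.

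Within the functional groups, 33 of 40 ratios between chosen pairs of genes kept their direction with both other definitions of length. Those that kept it include DNMT1 above DNMT3A above DNMT3B, TET3 above TET2 above TET1, IDH2 above IDH1, EP300 above CREBBP, KMT2B above KMT2A, CBX2 and CBX8 above CBX7, and EHMT2 above EHMT1. The level of a regulator fell with the length of its merged exons (Spearman correlation -0.54 across the 48 genes), whereas the authors' mean did not (0.05). Exon length is the divisor of the level, so the first value describes the scale as much as the genes, which are not replicates.

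Further genes of the same pathways were read from a list of 89 genes, of which 88 were found. At least 10 RPKM was reached by 36 of them, and 6 were under 1 RPKM, with a median of 8.34 RPKM. Among DNA methylation genes MBD4, a glycosylase that repairs mismatches at methylated sites, was the highest (22.8 RPKM) and DNMT3L, the catalytically inactive cofactor of de novo methylation, was listed at 0. Among Polycomb genes ASXL3 was the lowest, with 7 reads in all 6 libraries together (0 to 2 in each). The highest of the KMT2 list was HCFC1 (34.6 RPKM) and the lowest PAXIP1 (3.11 RPKM). For acetylation these were KAT2A (39.4 RPKM), an acetyltransferase of the SAGA complex, and HDAC9 (0.293 RPKM). GFI1, a repressor that recruits KDM1A, reached 108 RPKM, the highest of the 88, whereas KDM7A was the lowest of the demethylase list (1.62 RPKM). Of the other histone methyltransferases KMT5A was the highest (10.4 RPKM), and PRDM9, a germline enzyme, had 7 reads in all libraries together.

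The label of the cells was compared with marker genes. The myeloid genes CEBPA, SPI1, CD33 and MPO were at 329, 136, 33.9 and 10.8 RPKM, and the pan-leukocyte genes LCP1, CD53 and PTPRC at 844, 34.8 and 15.5 RPKM. The progenitor markers CD34 (0.0552 RPKM) and KIT (0.00153 RPKM, 4 reads in all) were nearly absent. Of the B cell genes CD79A was at 3.55 RPKM and MS4A1 at 0.00182 RPKM. The T cell genes CD2, CD3D and CD3E did not exceed 0.0662 RPKM, the erythroid gene HBB was listed at 0 with EPOR at 4.16 RPKM, the epithelial genes EPCAM and KRT18 were listed at 0 with KRT8 at 0.364 RPKM, and the fibroblast genes COL1A1, COL3A1 and DCN did not exceed 0.431 RPKM.

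CpG dinucleotides, the substrate of the DNA methyltransferases, were then counted in the promoters of the regulators themselves. RefSeq windows of 250 bases before to 50 after 1 start site per gene matched 43 of the 48 genes, and BAP1, CBX2, CBX8, DOT1L and KAT6A had no entry. The 43 windows held a median of 30 CpG dinucleotides (range 3 to 56), against 24 over 12268 promoters of protein-coding genes with a mean above 0 (quartiles 13 and 33). At least 10 were present in 39 of the 43 (90.7%) and in 79.6% of all. By group, the median was 15 for DNA methylation genes, 25 for other histone methyltransferases, 31 for acetylation genes, 31.5 for demethylases, and 39 each for the Polycomb and KMT2 groups. These counts follow RefSeq's choice of start site, and which start these cells use was not examined. The windows of the genes with the highest and lowest levels and with the most and fewest CpG are shown, 5′ to 3′ on the strand of the gene (GRCh38.p14), with each CpG in capitals.
BMI1: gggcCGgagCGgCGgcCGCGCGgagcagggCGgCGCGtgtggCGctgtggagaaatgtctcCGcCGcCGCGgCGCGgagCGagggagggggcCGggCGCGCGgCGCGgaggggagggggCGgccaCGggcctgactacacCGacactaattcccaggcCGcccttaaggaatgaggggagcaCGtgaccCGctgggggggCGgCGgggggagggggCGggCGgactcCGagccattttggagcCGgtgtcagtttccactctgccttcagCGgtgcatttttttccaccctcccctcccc
TET1: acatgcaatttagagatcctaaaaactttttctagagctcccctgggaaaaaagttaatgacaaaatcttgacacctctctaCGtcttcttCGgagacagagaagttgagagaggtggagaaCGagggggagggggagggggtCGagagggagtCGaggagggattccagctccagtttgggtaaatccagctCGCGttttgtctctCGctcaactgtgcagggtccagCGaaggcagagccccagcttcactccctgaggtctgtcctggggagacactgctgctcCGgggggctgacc
KMT2C: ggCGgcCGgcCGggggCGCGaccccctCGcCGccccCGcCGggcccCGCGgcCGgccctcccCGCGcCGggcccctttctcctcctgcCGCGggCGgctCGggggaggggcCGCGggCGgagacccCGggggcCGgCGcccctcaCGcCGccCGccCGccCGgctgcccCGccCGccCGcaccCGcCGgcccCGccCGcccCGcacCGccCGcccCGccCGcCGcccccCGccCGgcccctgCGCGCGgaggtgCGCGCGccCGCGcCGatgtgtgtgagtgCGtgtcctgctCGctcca
DNMT3B: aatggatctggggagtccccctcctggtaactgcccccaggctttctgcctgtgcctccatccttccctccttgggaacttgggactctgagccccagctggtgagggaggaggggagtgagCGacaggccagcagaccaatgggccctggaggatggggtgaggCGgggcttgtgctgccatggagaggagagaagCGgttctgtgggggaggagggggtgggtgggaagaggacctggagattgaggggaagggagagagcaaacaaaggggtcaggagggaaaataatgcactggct
The BMI1 window (chr10:22320849-22321148, plus strand) held 36 CpG and the TET1 window (chr10:68560087-68560386, plus strand) 10. KMT2C (chr7:152435954-152436253, minus strand) had the most, 56, and DNMT3B (chr20:32779602-32779901, plus strand) the fewest, 3. The KMT2C and DNMT3B windows both lie inside the gene as GENCODE annotates it, downstream of its first annotated start. CpG count and level did not run together over the 43 genes (Spearman correlation -0.05), as IDH2 combined 6 CpG with 88.6 RPKM and CBX7 50 CpG with 0.701 RPKM.

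**Figure D3:**
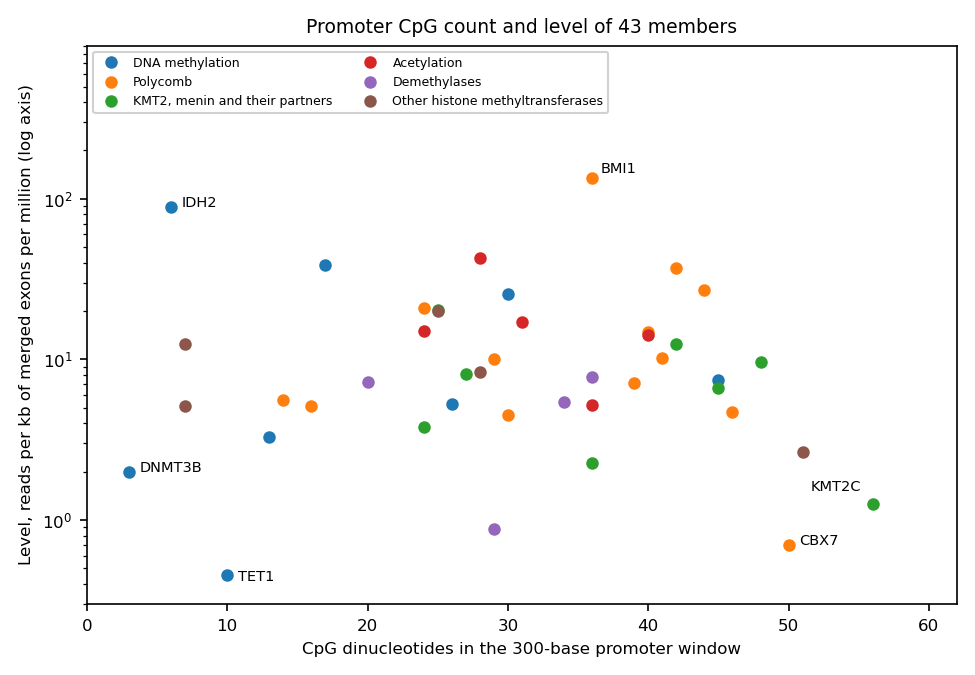
CpG dinucleotides in the 300-base RefSeq promoter window (x axis) and level in RPKM of merged exons (y axis, log) of 43 regulators, coloured by functional group. IDH2 with 6 CpG is among the highest levels and CBX7 with 50 CpG among the lowest, and no trend is seen.

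Short words of transcription factor motifs were searched in the same windows on both strands. TTTNNCGC, an E2F-type word, was in 6 of 43 windows (14.0%), those of EZH2, EZH1, RBBP7, SUZ12, DNMT1 and KMT2D, against 9.49% of all 12268. The NRF1 consensus word was in 6 (14.0% against 9.99%), of which EZH2, EZH1, RBBP7 and DNMT1 also held the E2F-type word. GGGCGG, bound by SP1, was in 33 (76.7% against 64.0%). CCAAT was in 14 (32.6% against 36.2%), CCGGAAGT, an ETS-type word, in KDM5A and PCGF1 (4.65% against 7.44%), and TATAAA in JARID2 alone (2.33% against 7.11%). A match describes letters in the window and not a bound site.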

How the data were processed

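Paired-end reads were passed through FastQC by the authors, mapped to GRCh38 (STAR, version 2.7.11 in the submitters' processing notes) and summarised over genes (featureCounts). For normalisation and their comparison of shSPINK2 with shNEG the authors used DESeq2 (1.40.0). The annotation release and strandedness are not given in the sources used here. The deposited table holds 1 signal column, the authors' mean over 6 libraries of counts divided by size factors, which alone was used. Its other columns hold the authors' own comparison (fold change, standard error, statistic, p-value and adjusted p-value) and were not used. With no value per library, no model was fitted and no test between groups was made.

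Gene IDs without version matched GENCODE release 44 for 57577 of 63236 rows (99.9% of counts), which gave positions, merged exon, longest transcript and coding lengths. Intervals are exact Poisson (95%). The members and lists were chosen with earlier results of these data known. The genes named are SPINK2, every member, the highest and lowest other gene of each group, and markers from a fixed list. Some genes of these lists are not reported here. Copies of members, and the genes singled out in the promoter account, were chosen after their values were seen.

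Reads of genes with a mean of at most 40 were recovered as the whole numbers whose sum, weighted by the 6 size factors that genes with 1 read show, gives the deposited mean. Exactly 1 solution was found for 13 of 13 genes looked at, and for 40 of 40 genes on simulated data. For TET1, the lowest member, 6 solutions lay between 60 and 320 reads per library, so members' reads per library are not given. Computation used scipy 1.17.1, pandas 2.3.3 and numpy 2.4.6 in Python 3.11.15, and matplotlib 3.10.9 drew the figures.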

Additional observations from a re-analysis of the deposited data

How the results depend on the processing

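No paired analysis was possible because the table has no column per library. For the same reason DESeq2 or edgeR fits, a filter on counts per library and leaving out labelled replicates were not run. Leaving out libraries was possible only for the recovered SPINK2 reads. All 48 genes have a mean of at least 50, so that filter changed no group median. The length that divides the mean moved levels most. With the longest transcript, the group medians were 7.82 RPKM (DNA methylation), 15.2 (Polycomb), 10.6 (KMT2 and menin), 21.2 (acetylation), 11.2 (demethylases) and 13.6 (other histone methyltransferases). With coding length they were 20.9, 37.1, 15.9, 42.1, 20.98 and 15.01 in the same order. With the counts of protein-coding genes alone as the total, the medians of the 5 groups other than Polycomb were 6.47, 8.30, 14.8, 6.45 and 8.53 RPKM. The median percentile of the 48 genes fell from 69.1 to 59.97 among the 12444 protein-coding genes with a mean of at least 10. Of 40 log2 ratios, 7 changed sign. With the longest transcript these were RBBP4 to RBBP7 (-0.15) and KDM5B to KDM5A (0.80). With coding length they were KDM5B to KDM5A (0.59), JARID2 to SUZ12 (-0.31), CBX2 to CBX8 (-0.15), MLLT10 to MLLT3 (-0.18), HDAC1 to HDAC2 (-0.38) and HDAC2 to HDAC3 (1.32). The sum of the SPINK2 reads over libraries, 194, limits its precision. The SPINK2 reads per library fell into a low and a high set of equal size. Leaving out any library could therefore only give a median of 9 or 53, which does not measure precision.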

Other observations

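The 6 libraries behind the deposited mean carry no label, and are numbered here from the largest size factor (1.03) to the smallest (0.985), which differ by 4.85%. SPINK2 had 7, 9, 56, 63, 53 and 6 reads in this order, so libraries 1, 2 and 6 lay between 6 and 9 and libraries 3, 4 and 5 between 53 and 63. CD34, the progenitor marker, had 18, 13, 31, 22, 23 and 11 reads in the same order, and DCN, a fibroblast gene, had 46, 37, 28, 33, 29 and 33. These libraries were not matched to shNEG or shSPINK2.

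COMMD3, which lies directly upstream of BMI1 on the same strand, was at 36.5 RPKM with merged exons.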
